A study of Mus musculus with 2 samples.

Results

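The active zone is the stretch of presynaptic membrane at which vesicles dock and release transmitter, and 10 of its scaffold genes were examined in hippocampal RNA. The genes were Bsn, Pclo, Rims1, Rims2, Unc13a, Unc13b, Erc1, Erc2, Ppfia2 and Rimbp2, chosen by symbol as established components of this scaffold. All 10 were found among 55536 annotated genes, and they carry 89 of 141767 annotated transcripts. Total RNA was sequenced from the hippocampus of female B6CASTF1/J mice, the offspring of a C57BL/6J by CAST/EiJ cross, aged 14 days. There was 1 group with 2 libraries, labelled as biological replicates, with 3 females listed for each, no treatment and no second genotype. Both libraries carry the same donor identifier, the layer of the hippocampus is not specified, and the labels do not say how the listed animals were combined. With 1 group there is no contrast to test, so the text describes levels, their spread over the libraries and the annotated transcripts that carry them. The spread between 2 libraries may be technical.

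In a mature terminal, RIM proteins sit at the centre of the scaffold: they bind Rab3 on vesicles, recruit calcium channels directly and through RIM-binding proteins, and activate Munc13 proteins, which prime vesicles for fusion. ERC proteins (also called ELKS or CAST) and liprin-alpha proteins bind RIMs and help to place the scaffold, while the very large proteins Bassoon and Piccolo span the vesicle cluster and keep it in place. In the hippocampus these proteins shape release at excitatory and inhibitory terminals alike, and pairs of paralogs with overlapping functions encode most of them.

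The libraries held 33465393 (replicate 1) and 32879872 (replicate 2) expected counts, where an expected count is an estimated number of reads that need not be whole. The scaffold genes together took 103347 and 100602 of these counts. Levels are given in TPM (transcript abundance scaled to a fixed library total), which corrects for transcript length, as mean ± SD over both libraries, and come from the first of 2 deposited quantifications unless the second is named. Positions are on mm10 with the GENCODE M21 annotation. Markers of the tissue were present: the vesicular glutamate transporter Slc17a7 of hippocampal excitatory neurons stood at 710.2 and 671.6 TPM, and the 6 listed excitatory markers summed to 1019 and 977 TPM. The libraries stood apart in choroid plexus, where 4 of 4 markers were lower in replicate 2 and their sum was 1404 and 6.16 TPM, with none at 0. Photoreceptor markers, a check for tissue that should be absent, summed to 0.21 and 0.23 TPM, with Crx listed at 0.

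All 10 scaffold genes were detected at 1 TPM or more in both libraries, against 58.6% of nuclear protein-coding genes. Their median level was 51.6 ± 0.0177 TPM (SD of the library medians, n = 2), while the 12892 detected protein-coding genes had a median of 14.9. Unc13a stood highest, ahead of Erc2 and Rims1, and Unc13b lowest. By level, Unc13a ranked 699th and Unc13b 5465th among the detected protein-coding genes, so every scaffold gene lay in their upper part, from the 57.6th to the 94.6th percentile. Along the order from Unc13a down to Unc13b, the libraries of neighbouring genes overlapped only for Erc2 and Rims1, whose levels cannot be ordered beyond their spread. In bulk tissue, fewer cells of a type and less RNA per cell cannot be told apart.

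**Figure D1:**
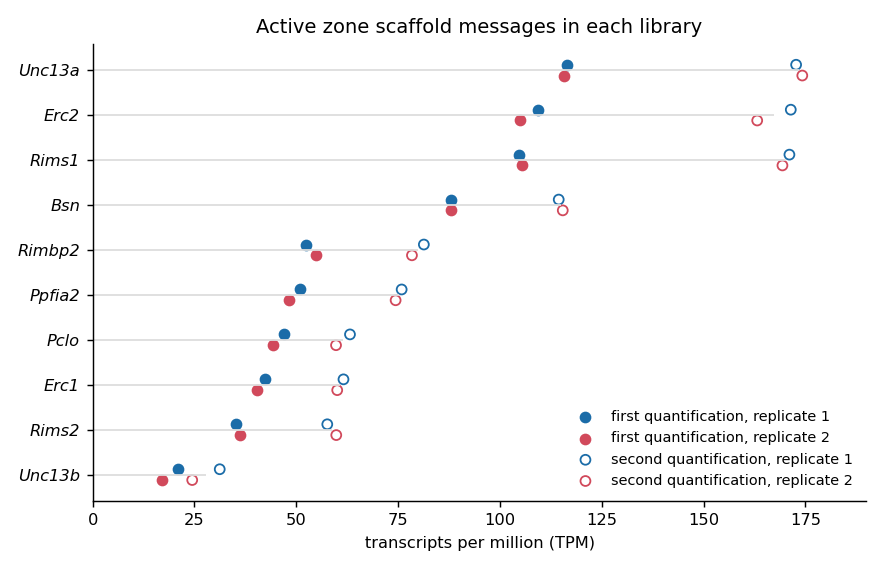
Level of each scaffold gene in TPM (horizontal axis), with filled points for the first and open points for the second quantification, in replicate 1 (blue) and replicate 2 (red). Unc13a leads and Unc13b is lowest in both quantifications, and the second gives higher TPM throughout.

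The second quantification, which assigned reads to transcripts without a genome alignment, gave higher values for every scaffold gene, by 1.31 times for Bsn to 1.64 times for Rims2, beside a median of 1.56 times over detected protein-coding genes. It exchanged Erc2 (167 ± 5.83 TPM) and Rims1 (170.2 ± 1.21 TPM) and left the other 8 positions in the order of means as they were. There the libraries of Pclo (63.19 and 59.77 TPM) overlapped those of Erc1 (61.60 and 60.06) and of Rims2 (57.62 and 59.83). The place of Pclo beside these genes is therefore not firm in that quantification. Reads per kb of each gene's longest annotated coding transcript put Bsn first and Unc13b last, and raw counts, which are not per length, put Bsn first and Pclo second. Pclo thus moved from place 7 by level to place 2 by count.

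Bsn encodes Bassoon, one of the earliest proteins to arrive at a forming synapse. The gene lies on chromosome 9 (108096022 to 108190384, minus strand). It had 88.1 TPM in replicate 1 and 88.0 in replicate 2, or 88.0 ± 0.0495 (n = 2), from 29911 and 29652 counts, the most of any scaffold gene. The libraries were nearly identical in TPM. Pclo encodes Piccolo, its larger relative, on chromosome 5 (14514918 to 14863459, plus strand). Pclo stood at 47.0 and 44.3 TPM, or 45.7 ± 1.88, from 17357 and 15948 counts. Bsn exceeded Pclo in both libraries, by 1.87 and 1.99 times in TPM, 1.93 ± 0.0784 on average.

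Bassoon and Piccolo begin with nearly the same amino-terminal stretch, which in Bassoon is a site of lipid attachment. The first 36 coding bases of each message are shown because they are equal at 27 positions (75.0%), marked in capitals, despite the genes lying on different chromosomes. They run from 108190223 to 108190258 on chromosome 9 for Bsn and from 14515222 to 14515257 on chromosome 5 for Pclo.
Bsn start: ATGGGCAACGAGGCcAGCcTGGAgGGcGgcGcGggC
Pclo start: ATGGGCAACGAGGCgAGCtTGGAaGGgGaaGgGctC

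Bsn is a gene of few annotated forms. Bsn-201, the full-length message of 15938 bases, held 88.3% and 87.9% of its TPM, and 98.9% in the second quantification. The remainder went to Bsn-202, an incomplete model. For Pclo, the message with the shorter coding end, Pclo-202 (14589 coding bases), led at 25.3 and 25.0 TPM, or 55.1% ± 1.77 of the gene. Pclo-201 (15204 coding bases) had 13.1 and 11.0 TPM, or 26.3% ± 2.26. Pclo-204, an incomplete model, had 7.01 and 7.57 TPM, or 16% ± 1.52, and 7.46% in the second quantification. The longer form of Piccolo is known for a further C2 domain, a membrane-binding module, at its carboxyl end. The last 30 coding bases of each and the stop codon, in capitals, show that the forms end in unrelated sequence.
Pclo long end: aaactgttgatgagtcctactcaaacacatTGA
Pclo short end: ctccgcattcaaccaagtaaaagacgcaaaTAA
Among the transcripts that reach either end, the longer took 28.9% in replicate 1 and 25.2% in replicate 2, or 27% ± 2.61. In the second quantification it took 25.3% and 21.7%. The shorter end was the more abundant in both libraries and both quantifications. The long end lies at 14858854 to 14858886 and the short end at 14794011 to 14794043.

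Unc13a encodes Munc13-1, the main priming factor of hippocampal glutamatergic terminals, and lies on chromosome 8 (71624417 to 71671757, minus strand). It had 116.4 TPM in replicate 1 and 115.9 in replicate 2, or 116 ± 0.361, from 15047 and 15690 counts. Unc13b encodes Munc13-2, on chromosome 4 (43058953 to 43264871, plus strand). It had 21 and 16.9 TPM, or 19 ± 2.91, from 2106 and 1803 counts. The libraries lay furthest apart in TPM for this gene, relative to its level. Unc13a exceeded Unc13b by 5.53 times in replicate 1 and 6.85 times in replicate 2, or 6.19 ± 0.929, the widest gap of the 4 paralog pairs. In reads per kb of the longest coding transcript the gap was 11.4 times, where the divisor for Unc13b is a model of 14754 bases.

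Munc13-2 is known in a ubiquitous form, whose start resembles Munc13-1 and binds RIM, and a brain form with an unrelated start. Both starts are annotated, and 30 bases from each start codon (in capitals) are shown beside Unc13a. The upstream Unc13b start is equal to that of Unc13a at 23 of 30 bases (76.7%).
Unc13a start: ATGtctctgctgtgcgtgggagtcaaaaaa
Unc13b upstream start: ATGtcgctgctctgtgtgcgtgttaaaaga
Unc13b downstream start: ATGaagcgactgttgagagagtctgaggag
The first 30 coding bases of Unc13a and of the upstream Unc13b form each cross a splice junction, from start codons at 71671647 and 43059264. The downstream start lies at 43215703 to 43215732 on chromosome 4, in an exon of 2514 bases (43215452 to 43217965) that the upstream form lacks. Unc13b-216, the message with this start, had 3.99 and 4 TPM. The transcripts with the upstream start together had 6.57 and 5.22 TPM, most of it in Unc13b-201 (5.11 and 3.99 TPM). The downstream start thus took 37.8% and 43.4%, or 40.6% ± 3.96, and 45.5% in the second quantification. The message for the brain form was level between the libraries, and the lower Unc13b total in replicate 2 came from other models, the upstream form and retained introns among them. Which of the Unc13b forms led therefore differed: Unc13b-201 in replicate 1, and Unc13b-216, by a margin within rounding, in replicate 2. In the second quantification Unc13b-216 led in both, with 6.42 and 6.66 TPM against 6.24 and 4.64 for Unc13b-201.

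The annotated Unc13b message Unc13b-215 includes a coding exon of 8367 bases (43169968 to 43178334). It had 1.25 and 1.09 TPM, which was 19% and 20.9% of the coding transcripts with the upstream start, or 24.6% in the second quantification. Transcripts with retained introns took 37.6% ± 1.42 of the Unc13b TPM, the highest such share of any scaffold gene. In TPM they were led by Unc13b-211 (2.42 and 1.77) and Unc13b-205 (2.07 and 1.17). These short models of 856 and 495 bases rested on 41.9 and 30.4 counts and on 18.8 and 10.6 counts. Longer retained-intron models had more counts. TPM is per transcript length, so short models weigh more in these shares than in counts. For Unc13a that share was 20.7% ± 0.552, with Unc13a-206 at 12.6 and 16.2 TPM. Total RNA holds unspliced precursor as well as finished message, and the part of precursor in these shares was not tested.

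Near their 3′ ends the Unc13 genes hold an optional exon of the same length. Both exons are 57 bases and coding, and their sequences are equal at 40 positions (70.2%), with the 17 bases that differ in capitals. They were chosen for display after the annotation and the values were seen, as were the other exons, starts and ends described here.
Unc13a 57-base exon: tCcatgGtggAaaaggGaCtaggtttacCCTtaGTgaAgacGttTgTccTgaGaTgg
Unc13b 57-base exon: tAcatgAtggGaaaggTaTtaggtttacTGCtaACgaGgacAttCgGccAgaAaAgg
The Unc13a exon (chromosome 8, 71633439 to 71633495) was in 48.4% and 47.5% of the Unc13a TPM that reached across it, or 48.0% ± 0.621. It was present in Unc13a-208 (38.1 and 39.4 TPM) and absent from Unc13a-201 (40.6 and 43.5 TPM), so the leading Unc13a messages were almost evenly divided. These models also differ outside the coding part: Unc13a-201 has 10255 bases, 5136 of them coding, and Unc13a-208 has 5654, with 5193 coding. Inclusion of the exon and the noncoding difference cannot be told apart. The second quantification put the exon at 54.1% and 53.0%, which exchanges the leading form. The Unc13b exon (chromosome 4, 43260993 to 43261049) was in 34.9% and 39.1%, or 37.0% ± 2.94, and in 39.3% and 44.7% in the second quantification. Skipping was the commoner state for Unc13b in every library and quantification. In that gene all TPM with the exon came from Unc13b-216, so inclusion and the downstream start cannot be told apart.

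Rims1 encodes RIM1, the central organizer of the release site, on chromosome 1 (22286251 to 22805994, minus strand). It had 104.8 TPM in replicate 1 and 105.3 in replicate 2, or 105 ± 0.410, from 7393 and 7343 counts. Rims2 encodes RIM2, on chromosome 15 (39198261 to 39684372, plus strand), and had 35.2 and 36.3 TPM, or 35.7 ± 0.806, from 2743 and 2834 counts. Rims1 exceeded Rims2 by 2.98 and 2.90 times, or 2.94 ± 0.0549, in TPM and by 1.96 times in reads per kb of the longest coding transcript. The direction held on each scale, and its size depended on which transcript length the counts were divided by.

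The TPM of Rims1 was shared among many models, and 45.9% ± 0.576 of it sat in incomplete ones. Rims1-202, an incomplete model of 2411 bases, led with 35.1 and 33 TPM, or 32.45% ± 1.53, and Rims1-208, also incomplete, had 13.4 and 14.9 TPM. Rims1-209, a short coding message of 1434 bases, had 19.3 and 20.4 TPM. A level built on short or incomplete models is per their own length, so the Rims1 total is less certain than that of Bsn. In the middle of the gene the RIM1 protein varies through optional exons. The 63-base and 90-base exons occurred in the same annotated transcripts and were in 75.6% and 76.8% of the TPM that reached across them. The 72-base exon was in 53.9% and 57.1%, the 183-base exon in 34.5% and 37.3%, and the 84-base exon in 32.1% and 34.6%. Among the compared transcripts, the 63-base and 90-base exons were therefore in most of the TPM, and the 183-base and 84-base exons in the smaller part. The compared transcripts did not include Rims1-202 or Rims1-209, so these shares do not describe the whole gene. The TPM without the 63-base and 90-base exons was all in Rims1-201. The TPM with the 84-base exon was all in the incomplete Rims1-208. Use of these exons and other differences between the models cannot be told apart. The 5 exons lie between 22398599 and 22425933 on chromosome 1. The second quantification gave the same side of 50% for each of the 5, with 79.6% for the first pair and 61.0%, 40.1% and 36.7% for the others.

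Rims2 is known to make long, intermediate and short proteins from separate promoters. Its annotated starts are shown with 30 bases from each start codon (capitals), beside the start of Rims1, which equals the first Rims2 start at 19 of 30 bases (63.3%).
Rims1 start: ATGtcctcggccgtggggccccgaggtcct
Rims2 first start: ATGtcggctccgctcgggccccggggccgc
Rims2 middle start: ATGcaatttgagacgttgcgccaggtctgc
Rims2 last start: ATGggccggcagggcctagggggcacgggt
The Rims2 starts lie at 39198363, 39392122 and 39659785 on chromosome 15, and the Rims1 start at 22805724 on chromosome 1. Rims2-204, with the last start and 855 coding bases, had 10.4 and 9.77 TPM and led the gene at 28.2% ± 1.79. Rims2-201, with the first start and 4716 coding bases, had 8.40 and 8.35 TPM. Rims2-211, an incomplete model with the middle start, had 7.39 and 7.58 TPM. Rims2-206, an incomplete model, had 6.75 and 8.15 TPM. All 3 starts thus carried TPM in both libraries at similar levels. Among transcripts with the last or the first start, the last took 53.5% and 52.1%, and 49.4% and 46.7% in the second quantification. The values lay near 50%, so which of these starts led depended on the quantification. A pair of optional Rims2 exons, of 66 bases (39517806 to 39517871) and 78 bases (39610064 to 39610141), were used at 53.3% and 48.7% for the shorter and at 39.5% and 44.8% for the longer. The second quantification put them at 45.5% and 42.9% on average. In the first, all TPM with the 66-base exon was in Rims2-201, and all TPM with the 78-base exon in the incomplete Rims2-206.

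Rimbp2 encodes RIM-binding protein 2, which links RIMs to voltage-gated calcium channels, and lies on chromosome 5 (128757791 to 128953486, minus strand). It had 52.3 TPM in replicate 1 and 55.0 in replicate 2, or 53.6 ± 1.86, from 5739 and 5738 counts. The counts were nearly equal, and the TPM also reflects the estimated message length, which was 4796 bases in replicate 1 and 4593 in replicate 2. Its leading messages were Rimbp2-204 (19.4 and 18.4 TPM), Rimbp2-207 (17.4 and 16.8 TPM) and Rimbp2-205 (7.87 and 9.34 TPM). Rimbp2-206, an incomplete model of 620 bases, had 6.09 and 8.90 TPM, or 13.9% ± 3.22. An exon of 21 bases, small enough to be called a microexon, is present in Rimbp2-204 and absent from Rimbp2-207. It lies at 128811983 to 128812003 and is shown in capitals with 6 bases of the message on either side.
Rimbp2 21-base exon: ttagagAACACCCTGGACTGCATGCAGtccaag
It was in 38.6% and 34.4% of the TPM that reached across it, or 36.5% ± 2.95, and in 28.5% and 27.6% in the second quantification. Skipping was the commoner state throughout, while Rimbp2-207 led the gene in the second quantification (29.4 and 30.7 TPM) and Rimbp2-204 in the first. These models also differ elsewhere: Rimbp2-204 has 19 exons and 6446 bases, and Rimbp2-207 has 21 exons and 4083 bases. In the first quantification Rimbp2-204 held nearly all TPM with the exon (19.38 of 19.69 and 18.35 of 18.35). Inclusion and the other differences between the models cannot be told apart.

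Erc1 encodes ELKS, on chromosome 6 (119570796 to 119848167, minus strand), and Erc2 encodes CAST, on chromosome 14 (27622428 to 28478537, plus strand). Erc1 had 42.3 TPM in replicate 1 and 40.4 in replicate 2, or 41.3 ± 1.33, from 6228 and 5768 counts. Erc2 had 109.4 and 104.9 TPM, or 107 ± 3.18, from 10584 and 9916 counts. Erc1 stood at 0.386 and 0.385 times Erc2, the most even ratio between libraries of the 4 pairs. In counts, Erc1 stood at 0.585 times Erc2. Erc2 was thus the higher on each scale.

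The brain forms of both proteins end in isoleucine, tryptophan and alanine, the residues by which they bind the PDZ domain of RIM, and other forms end elsewhere. The last 30 coding bases and the stop codon of each form are shown, with the codons of these residues in capitals. The RIM-binding ends of the paralogs are equal at 31 of 33 bases (93.9%).
Erc1 RIM-binding end: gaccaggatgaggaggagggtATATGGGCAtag
Erc2 RIM-binding end: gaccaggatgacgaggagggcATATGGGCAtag
Erc1 other end: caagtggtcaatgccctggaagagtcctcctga
Erc2 other end: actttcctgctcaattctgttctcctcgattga
The RIM-binding stretches cross a splice junction, while the other ends lie at 119575625 to 119575657 (Erc1) and 28475744 to 28475776 (Erc2). The last exon that holds the RIM-binding codons lies at 119618846 to 119618912 for Erc1 and at 28317249 to 28317314 for Erc2. In Erc2, transcripts with this end had 60.2 and 52.8 TPM against 22.5 and 22.3 for the other end, a share of 72.8% and 70.3%, or 71.6% ± 1.73. The second quantification gave 80.4% and 79.7%. In Erc1, transcripts with this end had 18.46 and 18.45 TPM against 22.6 and 20.9, a share of 45.0% and 46.9%, or 45.9% ± 1.32, and 48.9% and 51.5% in the second quantification. The share was higher in Erc2 than in Erc1 in every library and quantification.

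The leading Erc1 message, Erc1-206 at 16.7 and 15.3 TPM or 38.7% ± 1.17 of the gene, held most of the TPM with the RIM-binding end. The annotation classes it as a target of nonsense-mediated decay, and further exons follow its stop codon. The rest of that end's TPM was in Erc1-208 (1.76 and 3.16 TPM), an incomplete model also annotated as a target of decay. In the second quantification the rest was mainly in Erc1-211, another decay model (5.01 and 4.98 TPM). All Erc1 TPM with the RIM-binding end was thus in models annotated as targets of decay. Erc1-201 (15.3 and 14.6 TPM) and Erc1-203 (7.28 and 6.37 TPM) carry the other end. In Erc2 the RIM-binding end is carried by Erc2-205 (26.7 and 25.0 TPM), Erc2-208 (18.6 and 17.7 TPM) and Erc2-210 (14.95 and 10.1 TPM), all classed as coding, and the other end by Erc2-201 (22.5 and 22.3 TPM). The second quantification moved Erc2-210 to the lead, at 47.6 and 41.0 TPM. It also gave Erc2-206, a model of decay, 23.2 and 25.3 TPM against 2.23 and 2.45, and Erc2-209, an incomplete model, 2.51 and 4.81 TPM against 14.6 and 20.6. The division of Erc2 among its shorter models thus differed between the quantifications.

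Optional exons were found in both ERC genes. In Erc1 the 84-base exon was in 56.9% and 57.2% and the 132-base exon in 59.3% and 61.2% of the TPM that reached across them. In the first quantification the TPM with the 84-base exon (22.57 and 20.93) equalled that of the other Erc1 end. The TPM without the 132-base exon equalled that of Erc1-206 (16.7 and 15.29). Use of these exons and the other differences between the leading Erc1 models therefore cannot be told apart. In Erc2 the 12-base exon occurred in the same transcripts as the RIM-binding end and so had the same share. The 24-base exon was in 35.9% and 33.4%, and the 36-base exon in 32.2% and 33.3%. All 15 optional exons described for the RIM, Munc13, ERC and RIM-binding protein genes have a length that is a multiple of 3, the length of a codon. They were chosen after the annotation and the values were seen, and the share among all annotated optional exons is not given.

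**Figure D2:**
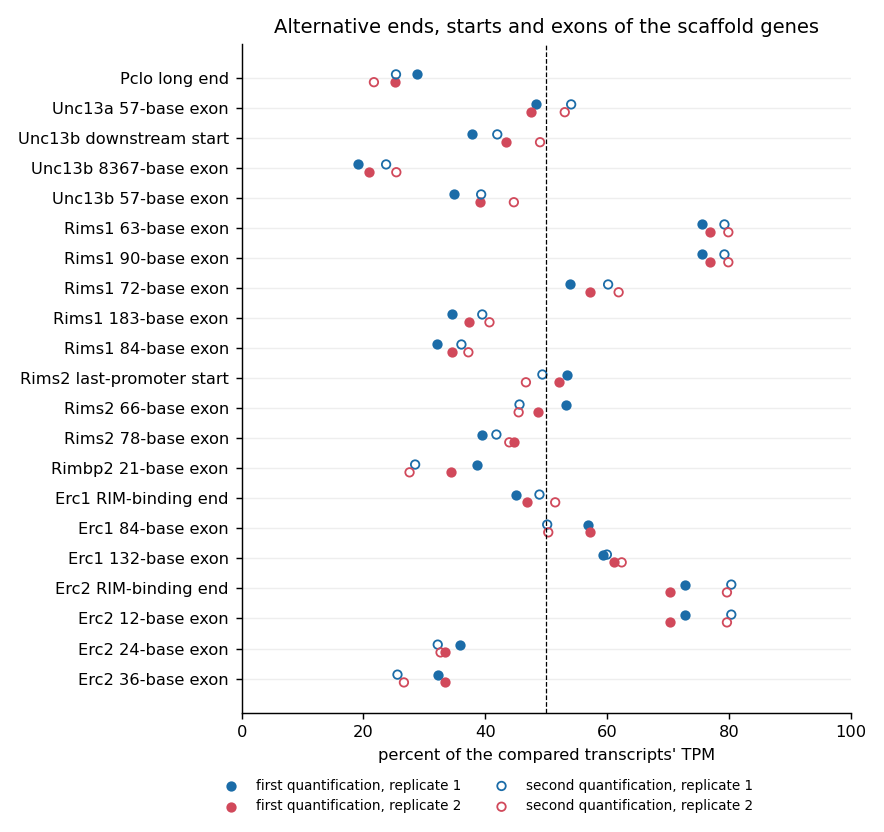
Percent of the compared transcripts' TPM (horizontal axis) that carried each end, start or optional exon, with filled points for the first and open points for the second quantification and the libraries in blue (replicate 1) and red (replicate 2). The dashed line marks 50%, and the libraries differ by at most 5.60 points in the first quantification.

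Ppfia2 encodes liprin-alpha-2, which binds ERC proteins, RIMs and LAR-type receptors, and lies on chromosome 10 (106470339 to 106935952, plus strand). It had 50.9 TPM in replicate 1 and 48.2 in replicate 2, or 49.6 ± 1.90, from 6239 and 5910 counts. A single message, Ppfia2-201 of 5429 bases, held 86.1% and 85.1% of its TPM, and 86.6% in the second quantification. With Bsn, it was the scaffold gene whose TPM rested most on 1 complete message.

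Across the scaffold genes, 33 transcripts held at least 10% of their gene's TPM in either quantification, and 21 of 89 models were at 0 in both libraries. Complete coding models held from 51.4% of Unc13b to 92.5% of Ppfia2. The leading transcript was the same in both libraries for 9 of 10 genes, with Unc13b the exception, and again for 9 of 10 in the second quantification, with Rims2 the exception. It was the same in both libraries and both quantifications for 5: Bsn, Pclo, Rims1, Erc1 and Ppfia2. The leading form of the other 5 is therefore uncertain. The share of all expressed genes with the same leading transcript in both libraries is not given, so these counts have no background to be read beside.

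**Figure D3:**
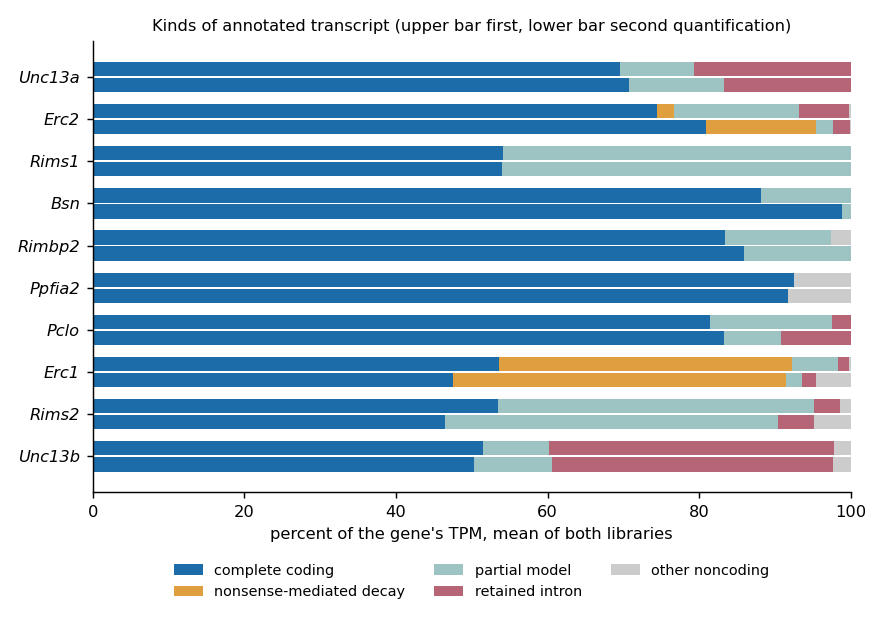
Percent of each scaffold gene's TPM (horizontal axis, mean of both libraries) held by complete coding models, nonsense-mediated decay models, incomplete models, retained introns and other noncoding models, with the first quantification as the upper and the second as the lower bar. Decay models stand out in Erc1, retained introns in Unc13b, and incomplete models in Rims1 and Rims2. The class labelled nonsense-mediated decay also holds Erc2-206, a non-stop decay model, and incomplete models form their own class whatever their annotation.

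Replicate 2 was compared with replicate 1 as a log2 ratio of counts after trimmed-mean (TMM) scaling, which sets the typical gene near 0. None of the 10 scaffold genes lay over 1.2-fold apart, where 21.0% of 14715 expressed genes did. The median ratio was 0.055, with 3 genes lower and 7 higher in replicate 2, beside -0.00033 over all those genes. The median size of the ratio was 0.089 for the scaffold genes and 0.12 for all. The sets are not matched for counts: the expressed genes start at 50 summed counts, and every scaffold gene had at least 1803 in each library. These comparisons therefore do not show the scaffold genes to be unusually stable. Unc13a had the highest ratio, 0.16 with a 95% counting interval of 0.13 to 0.19, and Unc13b the lowest, -0.12 with an interval of -0.22 to -0.033. Rims2 stood at 0.15 (0.071 to 0.22), Rimbp2 at 0.10 (0.047 to 0.15), Rims1 at 0.090 (0.043 to 0.14) and Bsn at 0.087 (0.064 to 0.11). The intervals of these 6 genes exclude 0. Those of Pclo (-0.022), Erc1 (-0.011), Erc2 (0.0060) and Ppfia2 (0.022) include it. The intervals cover counting error only and take the TMM scaling as fixed. Scaled by total counts, the median ratio was -0.020, so which intervals exclude 0 depends on the scaling. The share of all expressed genes with an interval that excludes 0 is not given. No ratio of single libraries has a replicate check.

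The ratio and the TPM differed in sign for 4 genes. Unc13a, Bsn, Ppfia2 and Erc2 had higher scaled counts in replicate 2 and lower TPM. TPM shares a total with the short noncoding RNAs and uses each library's estimated message lengths, while the ratio does neither. Markers of other cells differed alongside: astrocyte markers summed to 1475 and 1752 TPM (3 of 4 higher in replicate 2), interneuron markers to 376 and 311 TPM (4 of 5 lower), and choroid plexus markers as given above. Microglia markers summed to 78.41 and 91.45 TPM (3 of 3 higher in replicate 2). Excitatory markers also differed, in both directions. Of the 6, 2 had higher TPM in replicate 2, Wfs1 (49.95 and 69.58) and Prox1 (45.21 and 55.63), and the rest had lower TPM. The part of all these cells in the ratios of the scaffold genes was not tested.

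**Figure D4:**
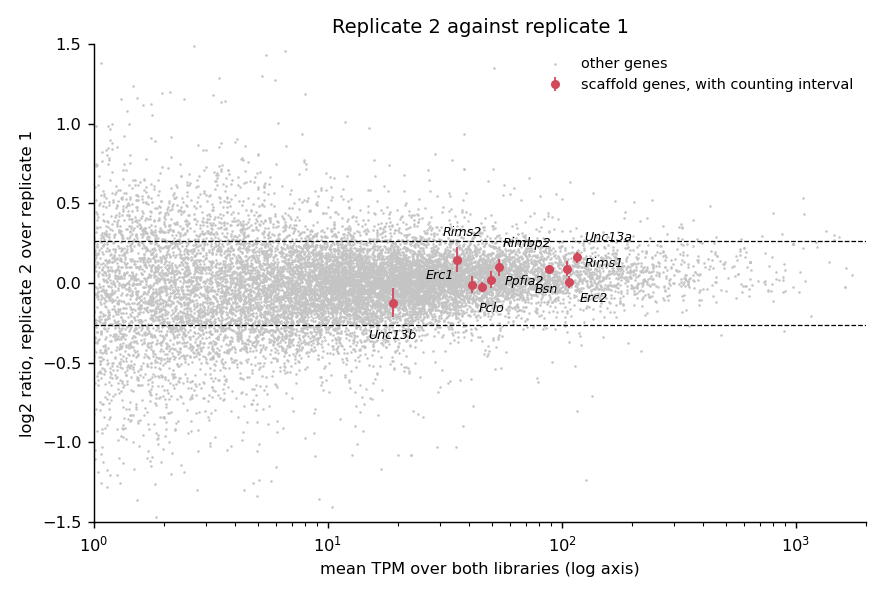
Log2 ratio of replicate 2 to replicate 1 (vertical axis) against mean TPM (horizontal, log axis) for 14715 genes in grey and the scaffold genes in red with 95% counting intervals; dashed lines mark 1.2-fold. All scaffold genes lie between the lines, and 69 other genes lie outside the vertical range shown.

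Several scaffold genes overlap other genes, and no label or header says whether counting used strand. Colgalt1, a collagen-modifying enzyme gene on the opposite strand (71610998 to 71624911 on chromosome 8), overlaps the 3′ end of Unc13a and had 27.3 and 19.7 TPM. It shares 3.63% of the 31-base words of Unc13a, so reads of that end may belong to either. Acss3, on the opposite strand, shares 22% of the words of Ppfia2, and had 0.62 and 0.28 TPM. The antisense gene Gm44317 shares 11.0% of the words of Erc1 and had 0.01 TPM in each library. The partners of Ppfia2 and Erc1 were thus far below them, whereas Colgalt1 stood closer, at 27.3 and 19.7 TPM against 116.4 and 115.9 for Unc13a. For Rims1, Rims2, Unc13b, Bsn, Erc2 and Rimbp2, under 1% of words were shared with any other gene, and for Pclo 4.19% were. These shares are upper limits for the words that paralogs have in common.

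The scaffold genes are long. Their median span on the genome was 313 kb, beside 26.0 kb for detected protein-coding genes, and Erc2, at 856 kb, was longer than 99.4% of them. Unc13a, at 47.3 kb, was the shortest. RefSeq promoters, from 250 bases before to 50 after a gene's start, were matched for 9 of the 10 genes (GRCm38.p6). Their median G and C content was 66%, beside 52.7% over 32851 promoters. The GC box GGGCGG, searched on both strands, was found in 7 of 9 (77.8%) and in 35.7% of all promoters. TATAAA, searched on both strands, was found in 0 of 9 and in 13.6% of all promoters. A match is a description of the letters and not a bound site.

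A list of 40 other genes of the release machinery gave context, and 39 were detected, with a median of 64.4 ± 1.45 TPM. None was over 1.5-fold apart between the libraries, beside 4.25% of all expressed genes. The 4 over 1.2-fold apart, named after their values were seen, were the release-site adaptor Ctbp2 (22.6 and 17.6 TPM), the Rab3 effector Rph3a (77.1 and 88.3), the vesicle GTPase Rab3b (23.5 and 18.1) and the Munc13 relative Unc13c (4.61 and 5.15). Among paralogs of the scaffold genes, which had a median of 18.6 TPM, Tspoap1 (RIM-binding protein 1) was highest at 60.7 ± 2.32 and Unc13d, the Munc13 of secretory blood cells, lowest at 0.855 ± 0.106. In the second quantification Unc13d had 4.51 and 5.19 TPM, so that all 40 genes were detected there. Tspoap1 was above Rimbp2 in both libraries (62.4 and 59.1 TPM). In the second quantification it had 84.5 and 71.98 TPM against 81.3 and 78.4 for Rimbp2, so the order turned in replicate 2. The liprin gene Ppfia3, also named after its values were seen, was above Ppfia2 at 57.5 and 57.6 TPM, and at 79.7 and 79.8 TPM in the second quantification.

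Membrane fusion proteins had the highest group median, 259 TPM, from the syntaxin Stx1a (64.2 ± 7.64) to Snap25 (627 ± 44.5). Every scaffold gene lay below that median. Of the calcium channel subunits (median 55.8), the P/Q-type pore subunit Cacna1a, the main presynaptic channel, was highest at 111 ± 0.700 and the subunit Cacnb4 lowest at 26.8 ± 0.516. Among Rab3 and vesicle-linked genes (median 82.7), Rab3a led at 332 ± 27.2 and Rab3d was lowest at 10.2 ± 0.580. The LAR-type receptors, which bind liprins, ran from Ptprf (43.9 ± 6.42) to Ptprs (322 ± 18.9). The adaptors ran from Git2 (18.2 ± 0.516) to Apba2 (126 ± 3.17), and of the ubiquitin ligase subunits Mycbp2 stood at 64.5 ± 0.700 and Fbxo45 at 18.2 ± 0.686.

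**Figure D5:**
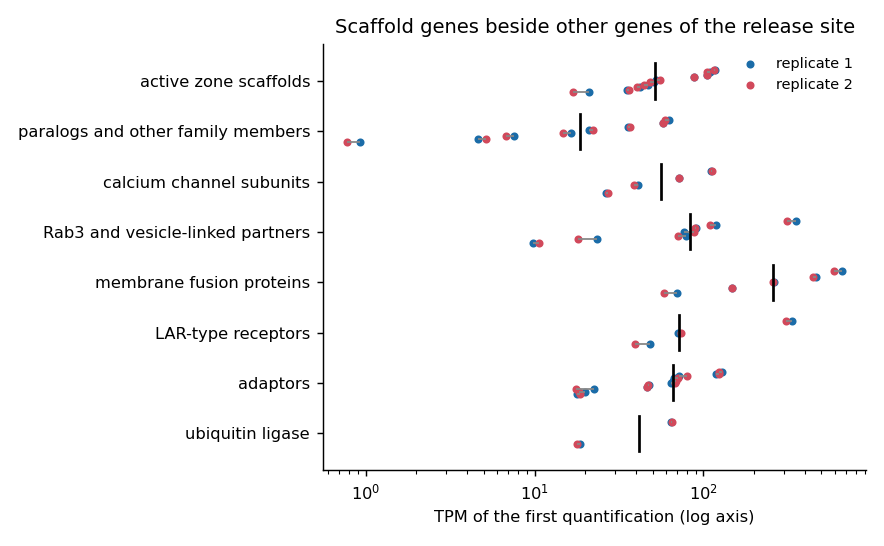
TPM of the first quantification (horizontal, log axis) for each gene of the scaffold set and of 7 role groups, in replicate 1 (blue) and replicate 2 (red), with a grey line joining the libraries of a gene and a black bar at each group's median. The scaffold median of 51.6 lies below that of the fusion proteins and above that of the paralogs.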

How the data were processed

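Hippocampal total RNA from 2 libraries was analysed, 300 ng of RNA going into each per the labels. The authors quantified each library against mm10 with GENCODE M21. The first quantification, in the layout of RSEM, gives expected counts, FPKM and TPM per the file headers. It also gives, per the file headers, each transcript's percent of its gene's TPM. The second, in the layout of kallisto, gives TPM and estimated counts, per the file headers. FPKM was not used for results. The aligner and the use of strand are not stated in any label or header. The reference sequence is that of C57BL/6J, and alleles were not separated.

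Gene symbols came from the second quantification's identifiers, joined by gene identifier, and 10 of 10 scaffold genes matched. The genes and lists were chosen with earlier results of these data known. Spike-ins and other unannotated entries stayed out of scaling. Of the total, 33321573 and 32740837 expected counts fell on annotated genes. Ratios used expected counts, TMM factors from edgeR 4.0.16 (R 4.3.3; 10 or more counts in each library required) and a prior count of 0.5. The background was limited to genes whose mean TPM reached 1 and whose summed counts reached 50. Counting intervals are exact binomial at 95% confidence and cover counting error only, since reads are not independent molecules. No p-value is given, as there is 1 group. All scaffold genes are named, with the transcripts that hold at least 10% of their gene in either quantification, at most 4 per gene. Erc2 had 6 such transcripts, and the 2 beyond the first 4 by their higher share (Erc2-209 and Erc2-206) are named after their values were seen. Of the context list, the highest and lowest of each role group are named, and any past 1.5-fold. Shares of an end, start or exon are sums of transcript TPM. Reads per kb divide counts by the longest coding transcript's length less 99 bases, the fixed difference between length and effective length in the first quantification. Coding sequences were read from the GENCODE M21 transcripts and promoters from RefSeq. The ratio step was tested on simulated data. Python 3.11.15 with pandas 2.3.3, scipy 1.17.1 and biopython 1.88 served the rest, and DESeq2 1.42.0 one alternative.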

Additional observations from a re-analysis of the deposited data

How the results depend on the processing

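Events were chosen after seeing the data. All 10 scaffold genes stayed detected at 0.5 and 5 TPM, in the second quantification and in either library alone. Under the scaling, quantification, prior count and low-count filter alternatives, 0 lay over 1.2-fold apart. The median level was 77.5 TPM in the second quantification and 117 TPM after rescaling over nuclear protein-coding genes, and 51.595 to 51.62 TPM with either library left out. The median log2 ratio was 0.069 in the second quantification, 0.0035 scaled by spike-ins and -0.020 scaled by total counts. In counts, which are not per length, Bsn to Pclo was 1.79, Rims1 to Rims2 2.64, Unc13a to Unc13b 7.92 and Erc1 to Erc2 0.585. Per kb of the longest coding transcript, added after seeing the data, these ratios were 2.26, 1.96, 11.4 and 0.414. The second quantification put Erc1 to Erc2 at 0.364 and, as an added alternative, the median of the other release genes at 87.9 TPM. With either library left out, the ratios ran from 1.87 to 1.99, 2.90 to 2.98, 5.53 to 6.85 and 0.385 to 0.386. Each ratio kept its direction. The second quantification, added for events, exchanged the majority at 4 of 21: the Erc1 RIM-binding end (50.2%), the last Rims2 start (48.0%), the Unc13a 57-base exon (53.6%) and the Rims2 66-base exon (45.5%), and the cause was not tested. Of the other single values, 25 moved beyond the spread of the libraries, the shares of all 10 leading transcripts among them. Every event lay within 10 points between quantifications. No paired analysis was possible because the series has 1 group. Levels of a few TPM, as for Unc13b transcripts, are limited by depth.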
